A study of Mus musculus with 2 samples.

Results

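The genes described here encode cyclins, cyclin-dependent kinases (CDKs) and CDK inhibitors of the mouse. They were chosen by symbol: cyclins named Ccn with a letter and a number, the single-letter cyclins Ccnc, Ccnh, Ccnk and Ccno, kinases named Cdk with a number, and the inhibitors Cdkn1a, Cdkn1b and Cdkn2a to Cdkn2d, each with a transcript annotated as protein coding. The rule found 44 of 55536 annotated genes, of which 20 are cyclins, 18 kinases and 6 inhibitors. The rule itself uses symbols and annotation and no measured value. Cdkn1c, the remaining Cip/Kip inhibitor gene, has a symbol outside the rule.

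Total RNA was sequenced from adrenal gland of 4-day-old male B6CASTF1/J mice, the F1 hybrid of C57BL/6J and CAST/EiJ. The study holds 1 untreated group with 2 biological replicates, and no other condition, strain or age. One description field gives both samples the same male number, whereas another numbers them differently, and both carry 1 donor label. They were taken as different animals because their biosample labels differ. The libraries come from undivided gland tissue, so cortex, medulla, capsule and blood are mixed, and fewer cells of a type and less RNA per cell cannot be told apart. The comparisons were therefore between genes, between the transcripts of a gene, and between both libraries.

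The libraries held 32231301 and 30292851 estimated counts on annotated genes, so that a count of 0 allowed up to 0.0931 and 0.0990 CPM, which 3 counts would give (counting error only). Markers of adrenal cortex and of chromaffin cells, the catecholamine cells of the medulla, were detected, 6 of 6 on each list. All of them had lower counts in replicate 2, and the median log2 ratio was -0.24 on both lists. All 8 liver markers were higher in replicate 2 (summed level 219.7 TPM in replicate 1 and 5690 TPM in replicate 2), as were all 6 erythroid markers (1701 and 3130 TPM) and all 6 skeletal muscle markers (562 and 1036 TPM). The part of these tissue differences in the results below was not tested.

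A cyclin binds a CDK and switches its kinase activity on. In the division cycle, cyclins D with Cdk4 and Cdk6 phosphorylate the retinoblastoma protein in G1, cyclins E with Cdk2 act at the entry into S phase, and cyclins A and B with Cdk1 and Cdk2 drive S phase and mitosis. INK4 inhibitors bind Cdk4 and Cdk6, and Cip/Kip inhibitors bind cyclin-CDK complexes more widely, while a second class of cyclin-CDK pairs phosphorylates RNA polymerase II and other parts of the transcription machinery. In a newborn gland that is still growing, cells in every phase can be present, and bulk RNA gives their sum.

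Of the 44 genes, 38 were detected at a mean of 1 TPM or more (86.4%), where TPM is the deposited level, scaled by transcript length to a fixed total per library. The share among all 22028 protein-coding genes was 60.4%. The detected genes had a median of 16.7 TPM, against 11.5 TPM for the 13305 detected protein-coding genes, and 30 of the 44 reached 10 TPM. Cdk4, Ccnd2, Ccnd3 and Cdk16 were the only 4 above 50 TPM. The order of neighbouring genes in the list was often uncertain. Of 37 neighbouring pairs 18 had the same order in both libraries, 19 turned, and 17 had ranges that did not overlap.

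**Figure D1:**
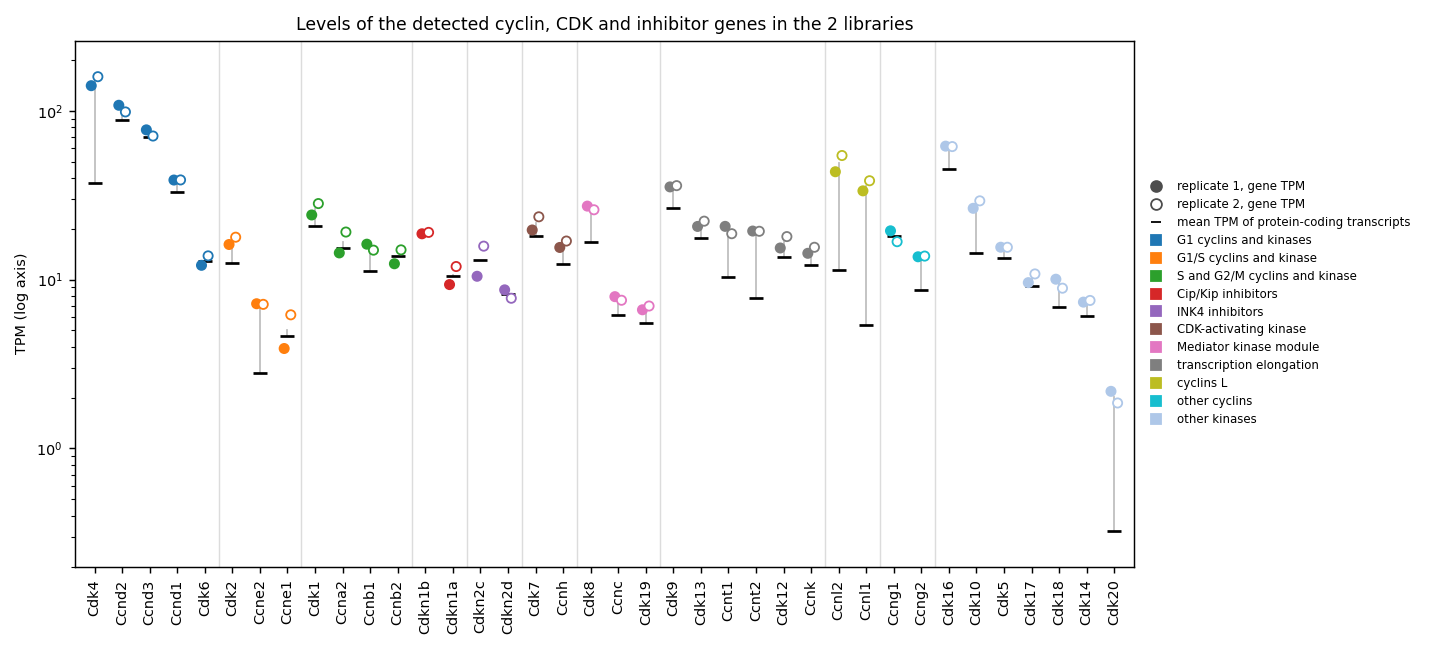
Level of each detected gene in replicate 1 (filled circle) and replicate 2 (open circle), in TPM on a log axis, coloured by role, with a dash at the mean level of its protein-coding transcripts. Cdk4 stands highest by gene TPM at 141 and 159 TPM but falls to 37.1 TPM when only protein-coding transcripts are summed, below Ccnd2 at 88.5 TPM.

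Of the G1 genes, Cdk4, Ccnd2 and Ccnd3 held the 3 highest levels, Ccnd1 rank 6 and Cdk6 rank 28 of the 44. Ccnd2, encoding cyclin D2 (ENSMUSG00000000184.12, mm10 chr6:127125162-127152193), was at 108 TPM in replicate 1 and 98.5 TPM in replicate 2, a mean of 103.2 ± 6.62 TPM (SD, n = 2). Ccnd3, encoding cyclin D3 (chr17:47505051-47599691), was at 77.1 and 70.9 TPM, a mean of 74.0 ± 4.40 TPM. Ccnd1, encoding cyclin D1 (chr7:144929931-144939925), was at 38.9 and 39.0 TPM, a mean of 38.9 ± 0.0424 TPM. By gene TPM the libraries thus gave the D cyclins the same order, with no overlap between neighbours. Part of the Ccnd2 TPM lay on short transcripts, and Ccnd2-206, of 627 bases, took 32.4 and 26.9 TPM from 567 and 425 counts. The highest single transcripts had the other order, with Ccnd2-201 at 58.4 and 54.3 TPM and Ccnd3-205 at 66.0 and 60.1 TPM. On counts without length scaling Ccnd2 exceeded Ccnd3 by log2 ratios of 1.44 and 1.48. Ccnd2 made up 47.7% ± 0.639 of the D cyclin TPM, Ccnd3 34.2% ± 0.297 and Ccnd1 18.04% ± 0.936. The log2 ratio of Ccnd2 to Ccnd1 was 1.47 in replicate 1 and 1.34 in replicate 2, and that of Ccnd2 to Ccnd3 0.48 and 0.47.

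Cdk4, a catalytic partner of the D cyclins (ENSMUSG00000006728.12, chr10:127063534-127067920), was the highest of the 44 genes, with 141 and 159 TPM (150.03 ± 13.0 TPM). Its paralog Cdk6 was at 12.2 and 13.8 TPM. Cdk4 exceeded Cdk6 in both libraries, with a log2 ratio of 3.53 in each, and made up 92.03% of their joint TPM. That ratio changed with length scaling. The highest transcript of Cdk6 was Cdk6-202, of 11525 bases, and Cdk6 carried 2437 and 2391 counts against 3673 and 3624 for Cdk4, so that without length scaling the log2 ratio was 0.60.

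Most of the Cdk4 signal lay on transcripts not annotated as protein coding. Cdk4-209, a retained-intron transcript of 468 bases (chr10:127066076-127067235), took 55.9 and 62.1 TPM, or 39.7% and 39.02% of the gene's TPM. Cdk4-208, a nonsense-mediated decay transcript, took 32.8 and 34.4 TPM. Protein-coding transcripts of Cdk4 held 35.9 and 38.3 TPM, a share of 24.8%. By counts their share was larger, with 1427 and 1380 of the 3673 and 3624 counts of the gene. Retained-intron transcripts held 1350 and 1396 counts. The alignment-free tables, which assign reads without a genome alignment, gave Cdk4-209 41.3% and 39.7% of the gene, so both kinds of table ranked the same transcript first. On protein-coding transcripts alone, Cdk4 still made up 74.8% and 73.8% of the Cdk4 and Cdk6 sum. Ccnd2, Ccnd3 and Cdk16 then all stood above it, at 88.5, 70.0 and 45.0 TPM.

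Tspan31, a gene on the opposite strand, shares 641 of the 3249 exon bases of Cdk4 (19.7%) and was at 34.6 and 34.2 TPM. Those bases lie in Cdk4-201, whereas Cdk4-208 and Cdk4-209 share 0 bases with it. Ccnd1 likewise shares 23.4% of its exon bases with the opposite-strand gene LTO1, which was at 9.54 and 11.7 TPM. The libraries were made with a directional kit, but no source used here says if the strand entered the counting, so reads in such shared bases are uncertain. In all, 19 members share exon bases with a gene on the other strand, and 5 of them over 10% of theirs. The other three of these are Ccna1, Ccne2 with Ints8 (17.4%) and Ccna2 with Exosc9 (12.5%), and Exosc9 was at 14.6 and 16.6 TPM.

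At the entry into S phase the levels were lower. Cdk2, the kinase of the E cyclins (chr10:128697939-128705031), was at 16.2 and 17.8 TPM. Ccne2, encoding cyclin E2, was at 7.20 and 7.14 TPM, and Ccne1, encoding cyclin E1, at 3.91 and 6.19 TPM. By gene TPM Ccne2 exceeded Ccne1 in both libraries, with log2 ratios of Ccne1 to Ccne2 of -0.88 and -0.21. On protein-coding transcripts the order turned, with log2 ratios of 0.40 and 1.02. The processed transcript Ccne2-205, of 432 bases, carried 53.9% and 54.0% of the Ccne2 TPM. Only 39.0% of the Ccne2 TPM lay on protein-coding transcripts, against 92.3% of the Ccne1 TPM. By counts most of Ccne2 was protein coding, with 266 and 236 counts on such transcripts. Ccne2-205 had 42.7 and 38.3 counts, so its high TPM share rests on few counts and a short length. The alignment-free tables gave Ccne2-205 only 15.7% of the gene in replicate 1 and almost none in replicate 2, and ranked Ccne2-204, another processed transcript, first with 27.0% and 57.8%. The protein-coding Ccne2 transcripts share 609 bases with the opposite-strand gene Ints8, which was at 12.7 and 11.1 TPM. Which E cyclin was the higher one therefore changed with the transcripts counted.

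The S phase and mitotic genes were present at 12 to 28 TPM. Cdk1, the kinase of mitosis (ENSMUSG00000019942.13, chr10:69335146-69352938), was at 24.2 and 28.2 TPM. Ccna2, encoding the cyclin A of dividing body cells (chr3:36564865-36572150), was at 14.4 and 19.1 TPM. Ccnb1 and Ccnb2, encoding the mitotic B cyclins, were at 16.2 and 15.0 TPM and at 12.4 and 15.01 TPM. By gene TPM the B cyclins overlapped, and their order turned between the libraries. On protein-coding transcripts Ccnb2 was higher in both, with log2 ratios of Ccnb1 to Ccnb2 of -0.23 and -0.33, and in the alignment-free tables Ccnb1 was, with 0.12 and 0.07. Cdk1 exceeded Cdk2 in both libraries by log2 ratios of 0.58 and 0.66, although Cdk2 had the more counts, and without length scaling that ratio was -0.33. Ccna1 and Ccnb3, both known from germ cells, were not detected. Ccna1 was at 0.32 and 0.28 TPM from 10 and 6 counts, and Ccnb3 at 0.01 TPM from 1 count in each library.

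Promoters of S phase and mitotic genes are known for a CCAAT word bound by NF-Y and for the cell cycle genes homology region (CHR) bound by the DREAM and MuvB complexes, and G1/S promoters for E2F words. The stretches below show the bases just before the first exon of Cdk1, Ccnb1 and Ccnb2, the detected mitotic members with an entry, and of Cdk2 as a G1/S gene for comparison. They are shown because these words have been studied in promoters of that kind. They come from RefSeq promoters on GRCm38.p6, all on the minus strand, and hold no base of an annotated exon of the gene. Capitals mark the words searched on either strand, which were CCAAT and, for CHR, the word TTTGAA with its variant TTCGAA. For E2F the word was TTCCCGC with the variants named next. They were TTCGCGC and then also TTGCCGC and last of all TTGGCGC.
Cdk1, chr10:69352939-69353078: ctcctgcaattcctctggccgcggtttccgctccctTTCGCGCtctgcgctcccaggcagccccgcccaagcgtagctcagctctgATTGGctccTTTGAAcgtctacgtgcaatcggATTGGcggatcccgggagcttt
Ccnb1, chr13:100786571-100786720: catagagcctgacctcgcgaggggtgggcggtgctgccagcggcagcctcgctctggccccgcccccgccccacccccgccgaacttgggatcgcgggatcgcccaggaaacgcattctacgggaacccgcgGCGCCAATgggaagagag
Ccnb2, chr9:70421555-70421704: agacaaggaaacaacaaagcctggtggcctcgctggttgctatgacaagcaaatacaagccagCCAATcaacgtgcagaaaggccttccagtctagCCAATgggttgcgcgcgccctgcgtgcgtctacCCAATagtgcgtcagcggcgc
Cdk2, chr10:128705052-128705201: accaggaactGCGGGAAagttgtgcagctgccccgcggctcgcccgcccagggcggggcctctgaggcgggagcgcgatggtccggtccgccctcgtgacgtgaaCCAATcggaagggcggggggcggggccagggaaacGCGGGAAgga

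In windows from 250 bases before to 50 after the RefSeq start, CHR words were found in 19.2% of all 32851 promoters, E2F words in 9.57% and CCAAT in 37.4%. Among the 5 promoters of the S phase and mitotic group, 2 held CHR, 3 held E2F and 4 held CCAAT. These counts include the undetected genes Ccna1, with a CCAAT word, and Ccnb3, with an E2F word, and leave out Ccna2. In Cdk1, counting back from the start, CHR began at -71 between 2 CCAAT words at -80 and -48, with E2F at -130. Further Cdk1 words outside the printed stretch were CHR at -15, E2F at -178 and CCAAT at -208. Ccnb2 had CCAAT words at -87, -54 and -21, equally spaced, and CHR at -167 and 5. Ccnb1 had CCAAT at -99 and -67, and the E2F word at -102 overlaps the first of them. Cdk2 had E2F words and 1 CCAAT at -45 and no CHR. Over all members, 41 promoters of 36 genes were matched, and 4, 8 and 19 of them held CHR, E2F and CCAAT. Ccna2, Ccnd1, Ccnd2, Ccne2, Ccnh, Cdk5, Cdk17 and Cdk19 had no entry.

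The inhibitors split into a detected and an undetected part. Cdkn1b, encoding the Cip/Kip inhibitor p27 (chr6:134920401-134925513), was at 18.7 and 19.05 TPM. Cdkn1a, encoding p21, a target of p53 (chr17:29090976-29100727), was at 9.35 and 11.96 TPM. Cdkn1b was the higher one in both libraries, by log2 ratios of 1.00 and 0.67. Both lay far below Cdkn1c, the imprinted inhibitor gene outside the rule, which had 565 and 543 TPM. Cdkn1c thus exceeded every one of the 44 genes in both libraries, Cdk4 included.

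Of the INK4 genes, Cdkn2c, encoding p18, was at 10.47 and 15.8 TPM and Cdkn2d, encoding p19Ink4d, at 8.70 and 7.76 TPM. Their order was the same in both libraries, with log2 ratios of 0.27 and 1.02, but the alignment-free tables gave -0.17 in replicate 1 and 0.40 in replicate 2. Cdkn2b, encoding p15, was at 0.54 and 0.29 TPM from 23 and 11 counts. Cdkn2a was at 0.34 and 0.42 TPM from 9 and 10 counts. Of the summed INK4 TPM, Cdkn2c made up 58.7% ± 9.10 and Cdkn2d 37.7% ± 8.06, which leaves little for Cdkn2a and Cdkn2b.

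Cdkn2a encodes proteins in different reading frames from alternative first exons. All of its 9 and 10 counts were assigned to Cdkn2a-202, which starts at the outer first exon and encodes p19Arf, a protein that stabilizes p53. Cdkn2a-201, which starts at the inner first exon and encodes p16Ink4a, had 0 counts in both libraries, and the alignment-free tables gave the same split. With so few counts a low level of Cdkn2a-201 was not detectable at this depth. The bases before each first exon are shown because the annotated transcripts start at different exons. With 9 and 10 counts the data do not settle the use of either start. They are RefSeq promoter bases on GRCm38.p6, minus strand, with the same words in capitals.
Cdkn2a inner start, chr4:89282193-89282292: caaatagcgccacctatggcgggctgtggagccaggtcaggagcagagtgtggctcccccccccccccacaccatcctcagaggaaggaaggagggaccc
Cdkn2a outer start, chr4:89294654-89294753: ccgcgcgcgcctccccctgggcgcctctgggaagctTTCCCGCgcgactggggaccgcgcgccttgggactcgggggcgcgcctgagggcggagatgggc
The outer stretch holds 1 E2F word, and none of the searched words lies in the 100 bases before the inner start.

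The 11 genes of the transcriptional CDK complexes were all detected, none as high as the D cyclin genes. Cdk7 and Ccnh, which form the CDK-activating kinase that is also part of the factor TFIIH, were at 19.7 and 23.6 TPM and at 15.5 and 16.9 TPM. In the Mediator kinase module, Cdk8 was at 27.3 and 25.9 TPM, its paralog Cdk19 at 6.63 and 6.98 TPM and their cyclin gene Ccnc at 7.93 and 7.55 TPM. Cdk8 exceeded Cdk19 in both libraries by log2 ratios of 2.04 and 1.89 and made up 79.6% ± 1.16 of their joint TPM. The size of that ratio changed with the measure. It was 1.81 and 1.40 on protein-coding transcripts, and 0.98 and 0.84 on counts without length scaling. Cdk9, the kinase of the elongation factor P-TEFb, was at 35.4 and 36.04 TPM. Its cyclin genes Ccnt1 and Ccnt2 were at 20.7 and 18.7 TPM and at 19.4 and 19.3 TPM, and their order turned between the libraries. Cdk12 and Cdk13, which with cyclin K phosphorylate the tail of RNA polymerase II, were at 15.4 and 18.0 TPM and at 20.7 and 22.2 TPM, and Ccnk at 14.3 and 15.6 TPM.

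Ccnl1 and Ccnl2, encoding the L cyclins that partner Cdk11 and take part in splicing, had high gene TPM and little of it on protein-coding transcripts. Ccnl2 was at 43.6 and 54.4 TPM and Ccnl1 at 33.6 and 38.5 TPM. Retained-intron transcripts held 26.2 and 32.9 TPM of Ccnl2 and 18.6 and 22.7 TPM of Ccnl1. Protein-coding transcripts held 12.5 and 10.4 TPM of Ccnl2 and 5.87 and 4.93 TPM of Ccnl1, or 23.3% and 15.0% of each gene. By protein-coding TPM, Ccnl1 stood at rank 35 of the 44 in place of rank 7, and Ccnl2 at rank 23 in place of rank 5.

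The protein-coding share had a median of 81.1% over the detected genes. It exceeded 90% in 10, among them Ccnb2, Ccng1, Cdkn1b, Cdkn2c and Cdkn2d. Ccnb2, Cdkn1b, Cdkn2c and Cdkn2d have no other type of transcript in the annotation, so their share was fixed in advance. The protein-coding share lay below 50% in 6, which were Ccnl1, Cdk20, Ccnl2, Cdk4, Ccne2 and Ccnt2. The highest transcript was protein coding in 33 of the 38 detected genes, or 86.8%, where the share among detected protein-coding genes was 93.0%. The exceptions were Cdk4, Ccne2, Ccnl1, Ccnl2 and Cdk20. The alignment-based and alignment-free tables ranked the same transcript first in 26 of 38 genes (68.4%), against 77.8% of all detected protein-coding genes with a value in both. Short transcripts weigh heavily in TPM, and neither share was tested against the background.

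**Figure D2:**
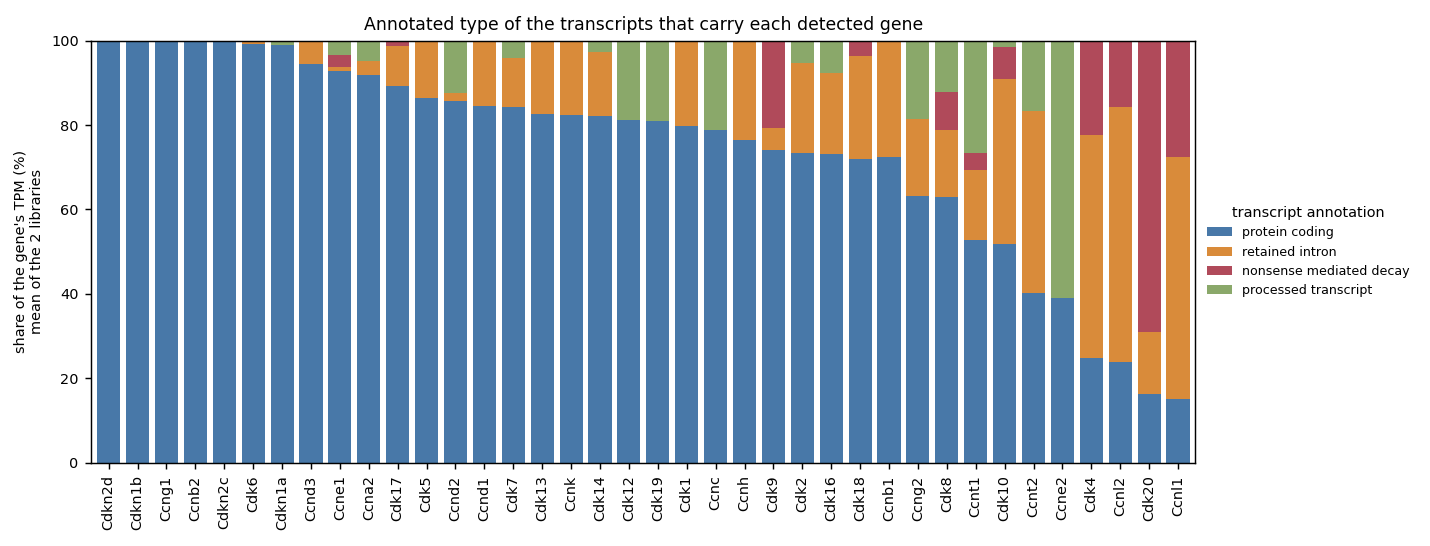
Share of each detected gene's TPM by the annotated type of its transcripts, in percent and as the mean of both libraries, with genes ordered from the highest to the lowest protein-coding share. The last 6 bars, from Ccnt2 to Ccnl1, lie below 50% protein coding, with retained introns as the main other type in Ccnt2, Cdk4, Ccnl2 and Ccnl1.

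The other kinases ranged widely. Cdk16, a kinase of the PCTAIRE group (chrX:20687954-20699880), was at 61.8 and 61.4 TPM, while its relatives Cdk17 and Cdk18 were at 9.60 and 10.8 TPM and at 10.06 and 8.90 TPM. Cdk16 thus stood well apart from both relatives in each library. Cdk10 was at 26.5 and 29.3 TPM, and Cdk5, best known for its role in neurons, at 15.6 TPM in both libraries. Cdk14, a kinase of cyclin Y, was at 7.36 and 7.53 TPM, and Cdk20 at 2.18 and 1.86 TPM. Cdk15 was not detected, at 0.09 and 0.07 TPM. Of the other cyclins, Ccng1, a p53 target, was at 19.5 and 16.8 TPM, Ccng2 at 13.7 and 13.8 TPM, and Ccno, which acts in multiciliated cells, was not detected at 0.27 and 0.25 TPM.

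**Figure D3:**
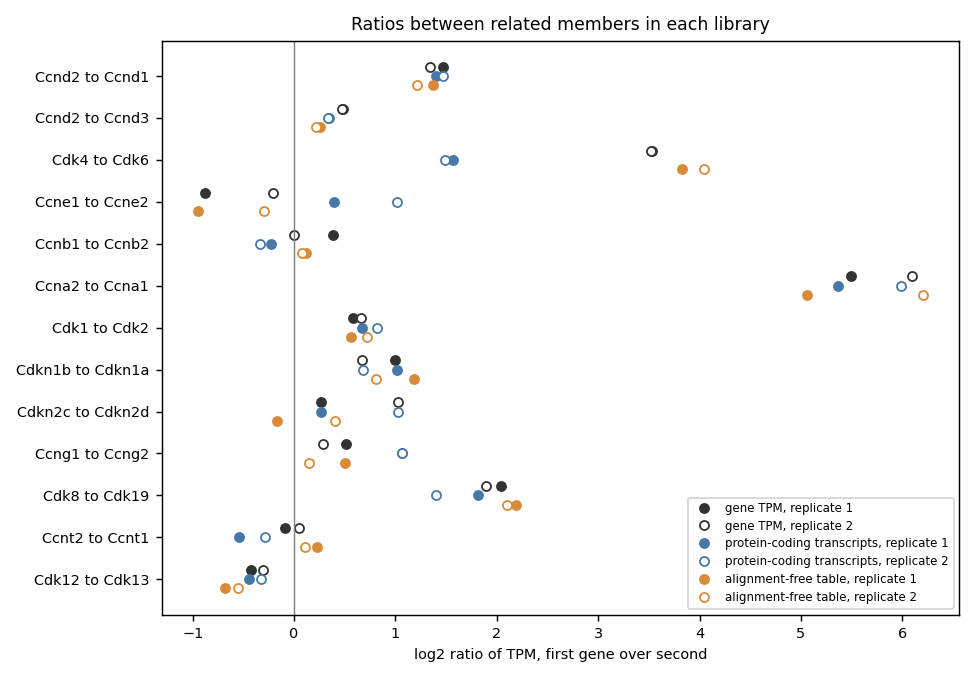
Log2 ratio of TPM between related genes, first over second, in replicate 1 (filled) and replicate 2 (open), from gene TPM, from protein-coding transcripts and from the alignment-free tables. Ccne1 to Ccne2 lies below 0 by gene TPM and above 0 by protein-coding transcripts, and Cdk4 to Cdk6 falls from 3.53 in both libraries to 1.57 and 1.49 on protein-coding transcripts.

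The libraries differed little in these genes. Counts were scaled to TMM library sizes, and the log2 ratio is replicate 2 over replicate 1. An exact two-sided binomial test compared each gene's counts between these libraries, with Benjamini-Hochberg adjustment over 18160 genes that passed a filter on low counts. It covers counting error in 1 library per animal and does not compare conditions. Of 40 members tested, 0 passed an adjusted threshold of 0.05 together with a 2-fold limit, where the percentage among all tested genes was 3.98% (3.38% higher in replicate 2 and 0.606% higher in replicate 1). With DESeq2 size factors the number was also 0, and 17 members had an unadjusted p below 0.05. Ccna1, Ccnb3, Cdkn2a and Cdk15 were too low to be tested. All 38 detected members lay within 1.5-fold, as did 92.5% of 14793 detected genes tested. Their log2 ratios ran from -0.34 for Cdk18 to 0.45 for Cdkn2c.

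By the binomial test alone, 16 of the 40 passed (40%, where the percentage over all tested genes was 33.5%), 7 higher in replicate 2 (15.9% of all genes) and 9 higher in replicate 1 (17.6% of all genes). The median log2 ratio of the members was -0.05 against 0.00, and the median absolute log2 ratio 0.14 against 0.17. These values lie near the background, so the members as a group did not stand out between the libraries.

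The D cyclins were all lower in replicate 2. Ccnd1 had 4338 and 3425 counts, a fold of 0.823 (95% counting interval 0.786 to 0.860, exact binomial adjusted p = 2.66e-16). Ccnd2 had a fold of 0.876 (0.854 to 0.899, exact binomial adjusted p = 5.04e-23) and Ccnd3 of 0.852 (0.817 to 0.889, exact binomial adjusted p = 1.81e-12). Their kinase genes Cdk4 and Cdk6 had folds of 1.03 and 1.02, with intervals that include 1. For Ccnd1 gene TPM did not show the difference, at 38.9 and 39.0 TPM. Its short retained-intron transcript Ccnd1-202 was at 2.81 TPM in replicate 1 and 7.90 TPM in replicate 2, while the protein-coding Ccnd1-201 was at 35.4 and 30.4 TPM. The cortical and chromaffin markers, with a median log2 ratio of -0.24, were lower in the same library, and their part in the D cyclin values was not tested.

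The detected genes of S phase and mitosis had folds above 1, and Ccna2 and Cdk1 passed the test. Ccna2 had 1307 and 1507 counts, a fold of 1.20 (1.11 to 1.29, exact binomial adjusted p = 1.11e-05). Cdk1 had a fold of 1.15 (1.05 to 1.26, exact binomial adjusted p = 0.0119). Ccnb2 and Ccnb1 had folds of 1.14 and 1.09 and did not pass (exact binomial adjusted p = 0.0759 and 0.209). Ccne1 had 237 and 307 counts, a fold of 1.35 (1.13 to 1.61, exact binomial adjusted p = 0.00282), and Ccne2 a fold of 0.923 that did not pass. For Ccnb1, counts and TPM pointed in different directions. The retained-intron transcript Ccnb1-205, of 461 bases, was at 3.96 and 0.76 TPM, whereas protein-coding Ccnb1 was at 10.6 and 11.9 TPM.

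On a list of 19 proliferation genes outside the rule, 10 passed the test higher in replicate 2 and 0 higher in replicate 1. Over all tested genes these shares were 15.9% and 17.6%. The median log2 ratio of the list was 0.11. The highest of them by level were Pcna, the replication clamp, at 43.5 and 50.03 TPM, Mcm6 at 32.1 and 34.7 TPM and Mcm7 at 29.3 and 36.2 TPM, and Pcna and Mcm7 were among the 10. The liver and erythroid markers, with median log2 ratios of 4.77 and 0.82, were also higher in replicate 2. Their part in the values of Ccna2, Cdk1 and Ccne1 was not tested.

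Among the inhibitors, Cdkn2c had 601 and 789 counts, a fold of 1.37 (1.23 to 1.52, exact binomial adjusted p = 8.40e-08), and Cdkn1a a fold of 1.23 (1.09 to 1.38, exact binomial adjusted p = 0.00242). Cdkn1b and Cdkn2d had folds of 0.952 and 0.860 and did not pass. Cdkn2c thus had the highest ratio of all detected members. Ccng1 had the opposite direction to Cdkn1a, although both are known p53 targets, with 2199 and 1710 counts and a fold of 0.810 (0.760 to 0.863, exact binomial adjusted p = 9.10e-10). Ccng2 had a fold of 0.877 and passed (exact binomial adjusted p = 0.0159), but not with total counts as library sizes (0.0507).

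Of the transcriptional and remaining members, Ccnc had a fold of 0.793 (0.698 to 0.900, exact binomial adjusted p = 0.00160), while its kinases Cdk8 and Cdk19 had folds of 0.951 and 1.05 and did not pass. Ccnt1 was lower and Cdk12 higher in replicate 2, with folds of 0.899 and 1.10, and Cdk12 did not pass in the alignment-free tables (exact binomial adjusted p = 0.068). Cdk16 and Cdk18 were lower, with folds of 0.903 and 0.790. Ccnl2 was higher by counts, with a fold of 1.11 (1.07 to 1.16, exact binomial adjusted p = 2.66e-06). Its protein-coding transcripts were at 12.5 and 10.4 TPM, and its nonsense-mediated decay transcripts stood at 4.87 TPM in replicate 1 and 11.1 TPM in replicate 2. On counts of protein-coding transcripts alone the log2 ratio of Ccnl2 was -0.36.

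**Figure D4:**
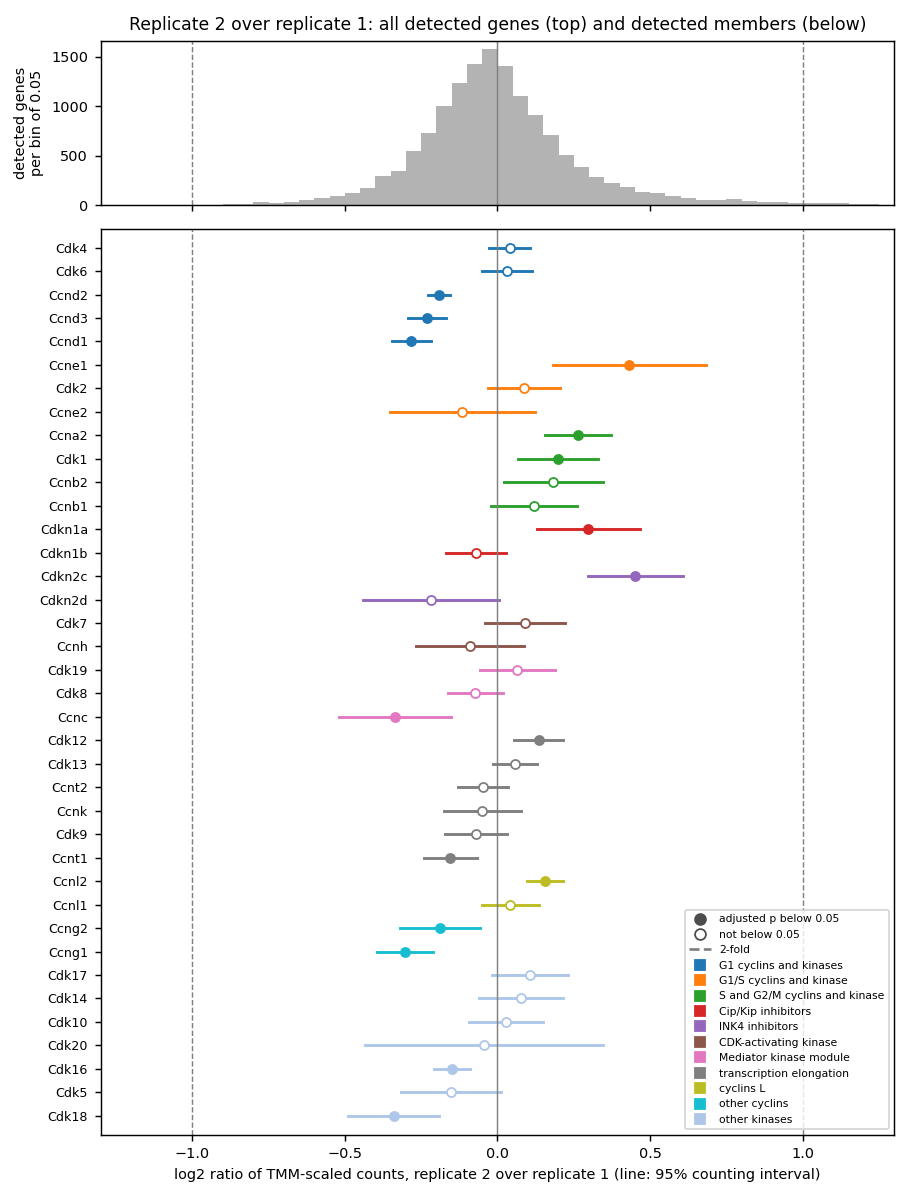
Log2 ratio of TMM-scaled counts, replicate 2 over replicate 1, for all detected genes (top, number of genes per bin of 0.05, with 318 genes beyond the axis) and for each detected member (below, with its 95% counting interval, filled where the adjusted p is below 0.05). Every member lies inside the dashed 2-fold lines, the D cyclins to the left of 0 and Ccna2, Cdk1, Ccne1 and Cdkn2c to the right.

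The genes that CDKs act on or answer to were present as well. All 19 genes of the retinoblastoma and E2F list were detected, led by Tfdp1 at 33.9 ± 0.0354 TPM, Lin37 at 26.7 ± 3.81 TPM and Tfdp2 at 24.9 ± 0.530 TPM. Tfdp1 and Tfdp2 encode the dimer partners of the E2F factors, and Lin37 a subunit of DREAM. Rb1 itself, a substrate of Cdk4 and Cdk6, was at 5.24 and 5.69 TPM. Of the 19, E2f2, E2f7, E2f8 and Mybl2 passed the test higher in replicate 2, and Rbl2, E2f6 and Lin37 higher in replicate 1, none of them over 2-fold, with counts near the 15.9% and 17.6% over all tested genes. The median log2 ratio of the list was 0.01.

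All 14 genes of a list on CDK phosphorylation and turnover were detected too. They were led by Cks1b and Cks2, small CDK-binding subunits, at 23.1 ± 0.445 and 17.9 ± 0.474 TPM, and by Fzr1, an activator of the anaphase-promoting complex, at 22.5 ± 2.77 TPM. Cdc25b, Cdc25c, Pkmyt1, Fzr1 and Cdkn3 passed the test higher in replicate 2 and 0 higher in replicate 1, beside 15.9% and 17.6% of all tested genes, and the median log2 ratio was 0.12. Of 13 partners of the transcriptional and atypical CDKs, all detected, the highest were Ccny, the cyclin of Cdk14, at 33.6 ± 1.29 TPM, Hexim1, an inhibitor of P-TEFb, at 21.5 ± 3.63 TPM and Med13 at 19.3 ± 0.919 TPM. Med12, Med13l and Cdk5r1 passed higher in replicate 2 and Hexim1 higher in replicate 1, again beside 15.9% and 17.6%. Hexim1 had a fold of 0.739, while its target kinase gene Cdk9 had a fold of 0.953 and did not pass.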

How the data were processed

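For each library the authors deposited a gene table and a first transcript table with expected counts and TPM (RSEM column layout), and an alignment-free transcript table with estimated counts and TPM (kallisto layout), all made against mm10 and GENCODE M21 as the file descriptions state. The programs, and how reads of the CAST/EiJ allele were handled, are not given in the sources used. Spike-ins and rows whose identifier was only a number (26248 rows with 3 and 2 counts) were left out, and expected counts were rounded.

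Library sizes were TMM sizes from edgeR 4.0.16 after filterByExpr. Each kept gene was compared by an exact two-sided binomial test (smaller tail doubled) written in Python 3.11.15 with scipy 1.17.1, with a prior count of 0.5 in ratios. Intervals are Clopper-Pearson intervals of the binomial share turned into folds, and cover counting error only. The script was tested on simulated data. Protein-coding TPM sums transcripts annotated protein_coding. Promoters came from the RefSeq table. Alternatives were other library sizes (DESeq2 1.42.0 size factors, totals, spike-ins), filters, fold limits, prior counts, detection levels, tables, transcripts and leaving out 1 library.

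All detected members are named, with 3 genes of highest TPM from each pathway list, partners of members, and list genes behind counts of 5 or fewer, which were chosen after their values were seen. The members and lists were chosen with earlier results of these data known. Protein sequences were not used here.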

Additional observations from a re-analysis of the deposited data

How the results depend on the processing

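No paired analysis was possible because the study holds only 1 group. Members past the test and the 2-fold limit numbered 0 under every alternative run. Over all genes that number, 723, was 1195 without the filter on low counts and 1402 with a 1.5-fold limit. Members past the test alone numbered 16 to 20, of which 15 or 16 were among the 16 given above. Detected members numbered 37 or 38, and 38 without replicate 1 and without replicate 2. Of 128 recomputed ratios of members past the test, 125 kept direction and side of the threshold. Those with another prior count could not change side, because the prior count enters the ratios and not the p-values. Ccng2 lost its call with total counts as library sizes (exact binomial adjusted p = 0.0507) and Cdk12 in the alignment-free tables (exact binomial adjusted p = 0.068), and Ccnl2 reversed to a log2 ratio of -0.36 on protein-coding transcripts only. Of 65 recomputed ratios between related genes, 21 moved by more than the spread (SD) between libraries and 2 reversed from a value larger than that spread. For the 13 pairs, leaving out replicate 1 or replicate 2 cannot move a ratio beyond that spread. Those recomputed ratios, part of the 65, therefore could not count as moved or reversed. The reversals were Cdk1 to Cdk2, -0.33 on counts without length scaling, and Ccne1 to Ccne2, 0.71 on protein-coding transcripts (-0.54 by gene TPM). Ratios within the spread also changed sign: Ccnb1 to Ccnb2, 0.19 by gene TPM, was -0.28 on protein-coding transcripts and -0.0058 without replicate 1, and Ccnt2 to Ccnt1, -0.02 by gene TPM, was 0.17 in the alignment-free tables, 0.14 on counts and 0.048 without replicate 1. Beyond the alternatives' own construction the causes were not tested. With 2 libraries and 1 group, precision rests on counting error, and members under about 1 TPM had at most 23 counts.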

Other observations

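All 11 genes of a p53 list, p53 itself and genes it is known to activate, were detected beside the members Cdkn1a and Ccng1. Trp53, encoding p53, was at 32.8 TPM in both libraries, Bax, a promoter of cell death, at 27.0 and 26.9 TPM, and Trp53inp1 at 25.8 and 21.3 TPM. By the exact binomial test, Sesn1 passed higher in replicate 2, as Cdkn1a did, with a fold of 1.16. Trp53inp1 and Btg2, a gene that restrains division, passed higher in replicate 1, as Ccng1 did, with folds of 0.773 and 0.704. The other 8 genes, Mdm2 and Gadd45a among them, did not pass, and the median log2 ratio of the list was -0.05. Over all tested genes 15.9% passed higher in replicate 2 and 17.6% higher in replicate 1, so the list did not stand out.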
